A study of Mus musculus with 23 samples.

Results

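Interferon-response and class I antigen-presentation genes were described in 23 bulk RNA-seq libraries of mice that lack 1 or both working copies of the glucagon receptor gene. The 41 genes were taken by symbol: 5 class I heavy chains with B2m, the peptide transporters and loading factor, the immunoproteasome subunits, interferon regulators, the ISG15 pair, antiviral effectors, nucleic acid sensors, OAS enzymes and interferon-inducible GTPases. All 41 were among the 22412 genes of the tissue table and 40 were among the 28096 of the alpha cell table, where H2-Q4 was not listed. Alpha cells, the glucagon-secreting cells of the islet, had been sorted from the islets of mice labelled Heterozygous GCGR (n = 3) and of mice labelled Homozygous knockout GCGR (n = 5), and both groups carry the treatment label tamoxifen. Dissected tumors (n = 7) and non-tumor pancreatic tissue (n = 8) both came from mice labelled as homozygous knockouts with treatment none, so the tissue comparison holds the genotype constant. A protocol text attached to every sample gives tamoxifen at 200 mg/kg for 5 days and islets taken 14 to 21 days later. The labels name no Cre driver, strain, age or animal, and a p-value can therefore only speak to variation among the libraries themselves, which may be technical. In bulk tissue, fewer cells of a type and less RNA per cell cannot be told apart.

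Interferons bind cell-surface receptors whose kinases activate STAT proteins. Type I and type III interferons act mainly through STAT2-containing complexes with IRF9 that bind the interferon-stimulated response element (ISRE), while interferon gamma acts through a GAS element and induces IRF1, the GTPases and the class I transactivator NLRC5. Class I molecules are heavy chains paired with beta-2-microglobulin that show peptides to CD8 T cells; the immunoproteasome cuts the peptides, TAP1 and TAP2 carry them into the endoplasmic reticulum, and tapasin (Tapbp) loads them. IFIH1 (MDA5) and DDX58 (RIG-I) sense foreign RNA and start interferon production, and IFIH1 is known in human genetics as a type 1 diabetes locus.

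The promoters below are shown because these genes carry the largest or most contrasting values that follow. Each runs from 250 bases before to 50 after the RefSeq gene start (GRCm38.p6), 5′ to 3′ on the gene's strand, and capitals mark an ISRE core in either of the 2 forms searched on both strands, GAAANNGAAA or GAANNGAAA. The regions are chr2:62646206-62646505 (minus strand), chr4:156200769-156201068 (minus strand), chr19:34640639-34640938 (plus strand), chr2:122147437-122147736 (plus strand), chr17:34000298-34000597 (minus strand) and chr17:35262844-35263143 (plus strand), in the order printed.
Ifih1: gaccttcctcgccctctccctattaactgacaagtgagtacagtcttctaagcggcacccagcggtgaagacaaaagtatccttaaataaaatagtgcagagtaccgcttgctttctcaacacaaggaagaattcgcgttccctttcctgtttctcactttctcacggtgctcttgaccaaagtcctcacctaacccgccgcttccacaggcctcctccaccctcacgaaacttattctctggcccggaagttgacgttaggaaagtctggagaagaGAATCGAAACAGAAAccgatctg
Isg15: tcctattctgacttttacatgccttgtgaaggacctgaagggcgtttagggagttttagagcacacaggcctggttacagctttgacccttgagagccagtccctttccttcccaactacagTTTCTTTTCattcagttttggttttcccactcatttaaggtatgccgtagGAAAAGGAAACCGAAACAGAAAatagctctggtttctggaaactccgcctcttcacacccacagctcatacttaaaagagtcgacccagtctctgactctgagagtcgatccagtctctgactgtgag
Ifit1: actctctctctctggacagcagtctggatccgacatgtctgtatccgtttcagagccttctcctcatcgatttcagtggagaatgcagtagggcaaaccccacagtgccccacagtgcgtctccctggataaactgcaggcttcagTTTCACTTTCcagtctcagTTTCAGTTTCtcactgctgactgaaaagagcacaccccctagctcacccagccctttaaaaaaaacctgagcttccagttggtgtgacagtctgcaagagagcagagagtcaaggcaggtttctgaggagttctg
B2m: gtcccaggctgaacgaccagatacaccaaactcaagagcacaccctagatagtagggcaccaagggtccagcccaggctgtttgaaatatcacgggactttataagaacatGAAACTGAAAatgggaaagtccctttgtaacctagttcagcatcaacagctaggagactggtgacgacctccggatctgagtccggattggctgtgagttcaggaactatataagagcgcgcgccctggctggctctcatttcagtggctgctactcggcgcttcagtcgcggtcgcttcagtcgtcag
H2-K1: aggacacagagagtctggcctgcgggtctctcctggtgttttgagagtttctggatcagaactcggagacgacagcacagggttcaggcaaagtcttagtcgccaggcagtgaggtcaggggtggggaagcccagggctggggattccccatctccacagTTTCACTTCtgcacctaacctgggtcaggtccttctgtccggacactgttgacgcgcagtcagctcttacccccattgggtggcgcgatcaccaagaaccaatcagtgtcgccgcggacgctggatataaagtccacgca
H2-D1: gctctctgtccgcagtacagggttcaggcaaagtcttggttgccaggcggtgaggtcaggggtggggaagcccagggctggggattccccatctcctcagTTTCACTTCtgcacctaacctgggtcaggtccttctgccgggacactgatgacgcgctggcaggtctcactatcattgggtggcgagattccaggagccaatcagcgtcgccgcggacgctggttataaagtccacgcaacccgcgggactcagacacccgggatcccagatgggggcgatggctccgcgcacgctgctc
RefSeq held 39 promoters for 33 of the 41 genes. GAAANNGAAA was found in 15 of the 39 (38.5%) and in 3.44% of all 32851 promoters of the same length, and GAANNGAAA in 13 (33.3%) against 7.52%. The GAS core TTCNNNGAA was found in 8 (20.5%) against 8.3%. Ifit1 had 2 cores of the first form in its window, Isg15 had 3, and Ifih1 had its cores after the gene start, from base 28. H2-K1 and H2-D1 held only the shorter form. The forms differ in spacing and can overlap, as they do in Ifih1. A match is a description of the letters in this window.

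Values were taken as RPKM, a unit that stands for reads scaled to gene length and library size and was read from the deposited values. In tissue, the authors' library scaling did not follow the inverse of the recovered reads, so tissue fold changes depend on it. Values were tested as log2(RPKM + 1) with limma. A gene was called at a Benjamini-Hochberg adjusted p below 0.05 over all genes tested. Levels set across the alpha cell and tissue tables were normalised separately. The targeted gene could not check the genotype labels: Gcgr was at 0 in every heterozygous alpha cell library (3 of 3), in 4 of the 5 from knockouts, where the other had 0.111 RPKM, and in all 7 tumors, and reached 0.135 RPKM in non-tumor tissue. Of the 12 alpha cell markers, the glucagon gene Gcg stood at 209220 to 439382 RPKM in sorted cells and 136765 to 195228 in tumors. In non-tumor tissue, Gcg stood at 34.3 to 455 RPKM, and summed acinar markers at 463600 to 602000. Tissue libraries held 7084645 to 15604820 recovered reads, whereas the depth of the alpha cell libraries is unknown. Genes above 0 numbered 13124 to 13882 in heterozygous libraries 1 and 2 and knockout libraries 1 and 2, and 16123 to 16579 in the other alpha cell libraries. Pairs of libraries within a group had Pearson r from 0.578 to 0.730 for heterozygous cells, from 0.653 to 0.928 for knockout cells, from 0.866 to 0.983 for non-tumor tissue and from 0.876 to 0.970 for tumors. Summed Y-linked RNA was 0.112 RPKM in heterozygous library 3 and 15.25 to 28.82 in the other alpha cell libraries. It was 0 to 0.1196 RPKM in tumor 2 and non-tumor libraries 2, 7 and 8, and 4.444 to 55.81 in the other tissue libraries. Sex was a covariate in an alternative tissue fit and in no alpha cell fit. Non-tumor library 2 and knockout library 5 stand apart in leukocyte markers, and results that touch them are given with these values.

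**Figure D1:**
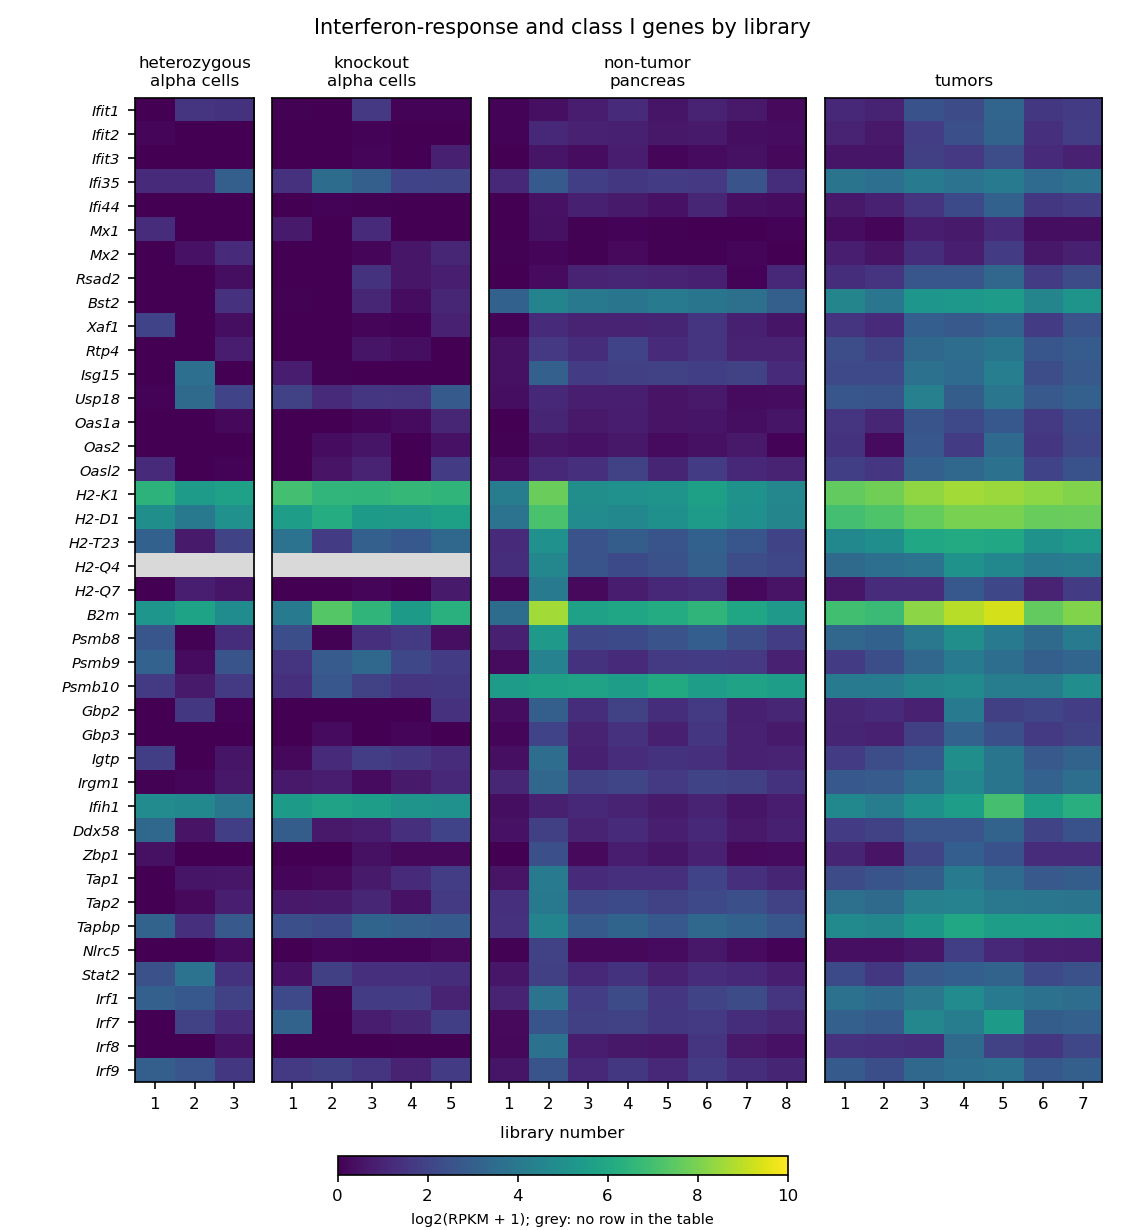
Level of each of the 41 genes (rows, grouped by role) in each of the 23 libraries (columns), as log2(RPKM + 1) by colour; grey marks H2-Q4, which has no row in the alpha cell table. H2-K1, H2-D1, B2m and Ifih1 are the bright rows of sorted alpha cells, and non-tumor library 2 and tumors 4 and 5 are the bright columns of their groups.

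In sorted alpha cells, much of the module was near the floor, in knockout and heterozygous libraries alike. Of the 40 genes listed, 20 reached 1 RPKM in at least 3 of the 8 libraries and were tested. H2-K1, H2-D1, B2m and the RNA sensor Ifih1 had the highest levels, 14.3 RPKM or more in every library. Below them came genes such as Tapbp, with means of 5.16 in heterozygous and 5.97 in knockout cells, H2-T23 with 3.81 and 7.57, and Psmb9 with 4.34 and 4.66. Among effectors, Ifit3 and Ifi44 were listed at 0 in all 3 heterozygous libraries, and the ubiquitin-like modifier Isg15 stood at 11.5 RPKM in heterozygous library 2 and at 0 to 0.731 in the other 7. No interferon gene was above 0 in heterozygous cells (12 of 12 listed at 0), and in knockout cells 11 of 12 were at 0 with Ifnk at 0.388 RPKM in library 5.

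None of the 20 tested genes passed in the comparison of knockout with heterozygous alpha cells, where 0.159% of 10718 genes were called higher and 0.103% lower. At an unadjusted p below 0.05, limma had 3 of the 20 higher (H2-K1, H2-D1 and Ifih1) and 2 lower (Stat2 and Irf1), against 5.65% and 4.91% of all genes. The same 3 genes were those whose knockout libraries all lay above every heterozygous library, against 3.85% of all genes, and 0 lay below (3.6% of all genes). The median log2 difference of the 20 was 0.33, beside 0.00472 over all genes.

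H2-D1, a classical class I heavy chain, stood at 30.3, 15.7 and 32.0 RPKM in heterozygous libraries and at 46.3, 71.9, 42.6, 40.5 and 50.1 in knockout libraries. H2-K1, the other classical heavy chain listed, stood at 86.4, 44.4 and 51.4 against 129, 94.8, 93.4, 99.3 and 93.2. Ifih1 stood at 27.1, 24.2 and 14.3 against 42.9, 53.7, 46.0, 34.9 and 32.3. For each of these genes the lowest knockout library lay above the highest heterozygous library, by a margin that was small beside the spread. On the log2(RPKM + 1) scale the difference was 0.96 for H2-D1 (SE 0.33, limma adjusted p = 0.329), 0.79 for H2-K1 (SE 0.28, limma adjusted p = 0.346) and 0.93 for Ifih1 (SE 0.32, limma adjusted p = 0.329). None of the 3 passed. B2m, the light chain common to class I molecules, was at 36.8, 55.3 and 28.1 RPKM against 16.1, 162.9, 93.1, 42.9 and 81.5. The B2m groups overlapped, with knockout libraries both below and above all heterozygous ones (log2 difference 0.66, SE 0.57, limma adjusted p = 0.715). H2-T23, the nonclassical class I gene for Qa-1, was at 7.69, 0.644 and 3.09 against 13.0, 2.36, 7.41, 5.73 and 9.37 (log2 difference 0.99, SE 0.60, limma adjusted p = 0.567).

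Of the 4 transcription factors tested, Stat2, Irf1 and Irf9 had lower means in knockout cells and Irf7 a higher one (1.36 and 2.49 RPKM, log2 difference 0.33), and none passed. Stat2 was at 4.65, 13.1 and 1.73 RPKM in heterozygous libraries and at 0.386, 2.69, 1.60, 1.56 and 1.49 in knockout libraries. Irf1 was at 7.43, 5.68 and 2.83 against 3.67, 0.0460, 2.37, 2.37 and 0.946, and Irf9, the DNA-binding partner of STAT2, at 7.16, 5.26 and 2.05 against 2.22, 2.71, 1.86, 0.989 and 2.45. In each of these 3 genes heterozygous library 3 lay among the knockout libraries. That library was also the alpha cell library with little Y-linked RNA (0.112 RPKM), and the part of sex was not tested. The log2 differences were -1.31 for Stat2 (SE 0.58, limma adjusted p = 0.456), -1.23 for Irf1 (SE 0.57, limma adjusted p = 0.466) and -0.85 for Irf9 (SE 0.49, limma adjusted p = 0.548). Ifit1, an RNA-binding antiviral effector, averaged 1.21 RPKM in heterozygous and 0.466 in knockout cells (log2 difference -0.62, limma adjusted p = 0.696). Ifi35 averaged 3.25 and 5.12 (log2 difference 0.60, limma adjusted p = 0.750). The remaining 10 tested genes were Tapbp, the 3 immunoproteasome subunits, Irf7, Usp18, Ddx58, Oasl2, Bst2 and Igtp, and had log2 differences between -0.38 and 0.47.

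**Figure D2:**
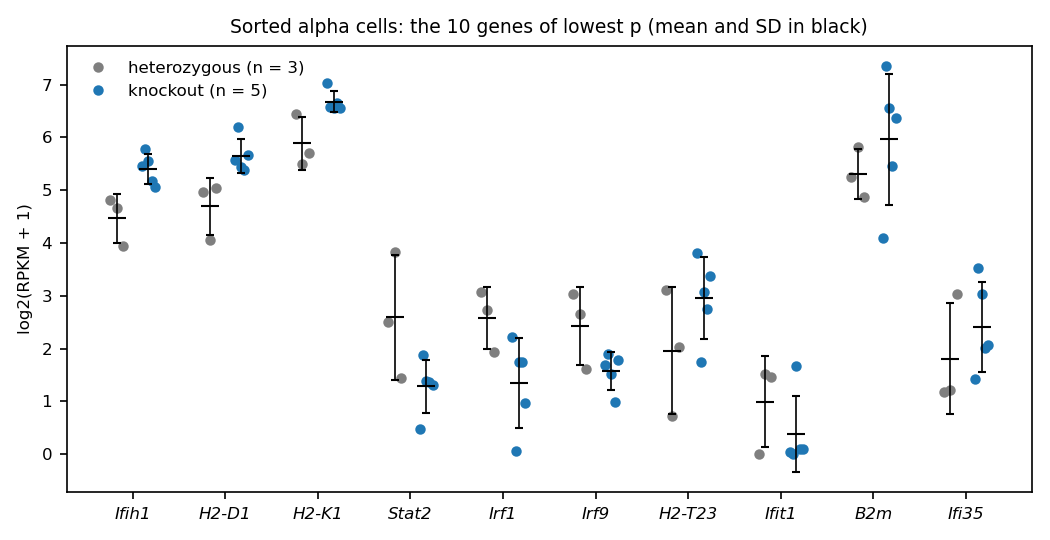
Level of the 10 genes of lowest p in sorted alpha cells, as log2(RPKM + 1), with 1 point per library (grey, 3 heterozygous; blue, 5 knockout) and the mean and SD in black. Ifih1, H2-D1 and H2-K1 are the genes whose groups do not overlap; Stat2, Irf1 and Irf9 have lower knockout means with overlapping points.

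RNA of marker genes of other cell types was detected in these sorted libraries. Summed over 30 leukocyte markers, knockout library 5 held 174 RPKM and the other knockout libraries 8.52 to 24.9, against 11.0 to 17.01 in heterozygous libraries. Cd8a, Cd8b1, Ms4a1 and S100a8 were at 0 in all heterozygous libraries, and Ncr1, S100a8 and S100a9 in all knockout libraries. Knockout library 5 was the highest knockout library for 14 of 40 genes (35.0%, untested genes included), beside 17.8% of the genes tested. Of the 14, only Usp18, Oasl2 and Bst2 were tested. The others, Tap1, Tap2, Gbp2 and Oas1a among them, were too low, so the 2 shares are not of like genes. It was the lowest of the 5 for H2-K1 and Ifih1, at 93.2 and 32.3 RPKM. Summed acinar markers stood at 12.8, 3821 and 583 RPKM in the heterozygous libraries and at 7.51 to 73.6 in the knockout libraries. Beta cell markers summed to 465.4 to 1995 RPKM in heterozygous and 255.2 to 745 in knockout libraries. Delta and PP cell markers summed to 2702 to 7294 RPKM in heterozygous and 4511 to 9907 in knockout libraries. The part of these cell types in the differences was not tested.

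Tumors differed from non-tumor pancreas in nearly every gene tested on the deposited scale, so the module has to be read against that background. Of 10220 genes tested, 90.7% were called higher and 3.68% lower in tumors on the deposited scale, with a median log2 change of 1.46. Of the 34 module genes tested, 30 were called higher and 1, Psmb10, lower, and their median was 1.48. Setting every library to the same median gene removed a shift of 1.54. After this centring 7 of the 34 were higher (28.6% of all genes) and 4 lower (36.7% of all genes), with a median of -0.06 beside -0.08 over all genes. The 7 were H2-K1, H2-D1, H2-T23, Tapbp, Usp18, Ifi35 and Ifih1, and the 4 were H2-Q7, Psmb10, Gbp2 and Gbp3. The share called higher was thus close to the background on the deposited scale and below it after centring. When libraries were scaled without acinar genes, 10 of 35 were higher (52.0% of all genes) and 1 lower (17.1%), and under quantile normalization 6 of 34 were higher (32.6%) and 2 lower (29.8%). Nlrc5, Ifit2, Ifit3, Ifi44, Oas2, Mx1 and Mx2 did not meet the filter of 1 RPKM in 7 libraries and were not tested; Mx1 had 0 to 75 recovered reads per library.

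B2m and the heavy chains H2-K1 and H2-D1 had the highest tumor means of the module, 307, 299 and 199.6 RPKM, with Ifih1 next at 54.4. The other heavy chains averaged 45.3 (H2-T23), 17.9 (H2-Q4) and 2.29 RPKM (H2-Q7). H2-K1 was at 17.4 (lowest), 32.9 (median) and 206 RPKM (highest) in non-tumor tissue and at 191, 318 and 395 in tumors. H2-D1 was at 12.8, 29.4 and 137 against 129, 205 and 256, and H2-T23 at 1.35, 5.20 and 32.1 against 24.3, 40.4 and 67.3. In each of the 3, the overlap came from non-tumor library 2, the highest of its group. H2-K1 rose by 2.88 on the log2 scale (SE 0.37, limma adjusted p = 6.11e-07) and by 1.34 after centring (adjusted p = 0.00113). H2-D1 rose by 2.55 and by 1.01 after centring (limma adjusted p = 9.74e-07 and 0.00413), and H2-T23 by 2.66 and 1.12 (4.20e-06 and 0.00732). B2m was at 10.7, 59.0 and 387 RPKM in non-tumor tissue and at 113, 275 and 656 in tumors; it rose by 2.04 on the deposited scale (limma adjusted p = 0.00162) and its centred change of 0.50 did not pass (adjusted p = 0.373). H2-Q4 behaved as the median gene did, with changes of 1.54 and -0.00122. H2-Q7 averaged 2.58 and 2.29 RPKM, was not called on the deposited scale (0.48, limma adjusted p = 0.341) and was lower after centring (-1.06, adjusted p = 0.0371). Heavy chains resemble each other: 9.63% of the 50-base words of H2-K1 transcripts, 10.9% of H2-D1, 9.69% of H2-T23, 16.5% of H2-Q4 and 25.1% of H2-Q7 also occur in another H2 gene, so reads could be divided between them in counting. In sorted alpha cells H2-Q7 and H2-Q9 had nearly equal values, 0.795 and 0.799 RPKM in heterozygous library 2 and 0.64 and 0.643 in knockout library 5. Their values may therefore rest on the same reads.

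Tapasin was the loading gene that kept a change on both scales. Tapbp was at 1.66, 6.83 and 21.9 RPKM in non-tumor tissue and at 22.8, 45.1 and 60.9 in tumors (lowest, median, highest), so the groups were apart. It rose by 2.35 (SE 0.33, limma adjusted p = 1.47e-06) and by 0.81 after centring (adjusted p = 0.00955). The transporter genes Tap1 and Tap2 rose by 1.38 and 1.66 on the deposited scale, while their centred changes of -0.16 and 0.12 did not pass. Of the immunoproteasome subunits, Psmb8 and Psmb9 rose by 1.30 and 1.37 (limma adjusted p = 0.0135 and 0.00933) with centred changes of -0.24 and -0.17 that did not pass.

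Psmb10, the third immunoproteasome subunit, was lower in tumors. It stood at 44.6, 48.4 and 66.5 RPKM in non-tumor tissue and at 16.8, 17.8 and 28.7 in tumors, with every tumor below every non-tumor library. It fell by 1.27 on the log2 scale (SE 0.13, limma adjusted p = 4.52e-08), beside 1.62% of all genes whose tumors all lay lower. After centring it fell by 2.81. The constitutive subunits that the immunoproteasome replaces, Psmb5, Psmb6 and Psmb7, rose by 1.39, 1.56 and 1.91 on the deposited scale; after centring Psmb7 was higher (0.37) and the changes of Psmb5 (-0.15) and Psmb6 (0.02) did not pass. In GRCm38, Psmb10 (chr8:105935735-105938444, minus strand) lies upstream of Ctrl, the acinar protease chymotrypsin-like gene on the same strand, with 1.9 kb between them and no annotated exonic overlap. Ctrl averaged 30141 RPKM in non-tumor tissue and 1695 in tumors. Within tumors, tumor 7 had the highest Ctrl, 5614 RPKM, and the highest Psmb10, 28.7. Tumor 5, with the lowest Ctrl of the tumors, 166.9 RPKM, had Psmb10 at 17.4. Within non-tumor tissue, library 1 had the highest Ctrl, 33559 RPKM, and the lowest Psmb10, 44.6. In the sorted cells, where both genes were far lower, heterozygous library 2 had the highest Ctrl, 81.3 RPKM, and the lowest Psmb10, 0.641. The part of acinar cells or of the neighbouring gene in the tissue difference was not tested.

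Among regulators, 4 of 5 tested genes rose on the deposited scale, near the 90.7% of all genes, and 0 of 5 passed after centring (28.6% of all genes higher and 36.7% lower). Irf7, the interferon-induced amplifier of type I responses, was at 0.204, 2.16 and 5.05 RPKM in non-tumor tissue and at 6.16, 7.48 and 42.8 in tumors, with the groups apart. It rose by 2.20 (SE 0.39, limma adjusted p = 2.94e-05), and its centred change was 0.66 (adjusted p = 0.108). Irf1, Irf9 and Stat2 rose by 1.86, 1.71 and 1.35 on the deposited scale and had centred changes of 0.32, 0.17 and -0.20. Irf8, a factor of myeloid and B cells, averaged 2.19 and 3.25 RPKM and was not called (0.79, limma adjusted p = 0.0990).

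Usp18, the protease that removes ISG15 and dampens type I receptor signalling, was at 0.230, 0.527 and 1.24 RPKM in non-tumor tissue and at 5.06, 6.62 and 19.3 in tumors. The groups were far apart, and Usp18 rose by 2.56 (SE 0.24, limma adjusted p = 7.91e-09) and by 1.02 after centring (adjusted p = 0.000842). Isg15 itself averaged 2.82 and 8.35 RPKM and rose by 1.24 on the deposited scale, with a centred change of -0.30 that did not pass. Of the antiviral genes tested, Ifi35 was the one called on both scales, by 1.97 and 0.43 (limma adjusted p = 5.58e-08 and 0.0358), and under quantile normalization it was not called (0.36, adjusted p = 0.0739). Bst2, the tetherin gene that holds budding virus at the cell surface and the most abundant antiviral gene in tumors, averaged 13.5 and 30.8 RPKM, and rose by 1.12 with a centred change of -0.42 that did not pass. Rtp4, Rsad2, Xaf1 and Ifit1 rose by 1.69, 1.54, 1.37 and 1.31 on the deposited scale, Oas1a and Oasl2 by 1.43 and 1.37, and Ddx58 and Zbp1 by 1.37 and 0.98. The centred changes of these 8 genes lay between -0.56 and 0.15 and none passed. Of the GTPases, Irgm1, Igtp and Gbp3 rose by 1.56, 1.77 and 0.78 on the deposited scale; after centring Gbp3 was lower (-0.76, limma adjusted p = 0.0112), as was Gbp2 (-1.13, adjusted p = 0.0128), which was not called on the deposited scale (0.41, adjusted p = 0.353).

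**Figure D3:**
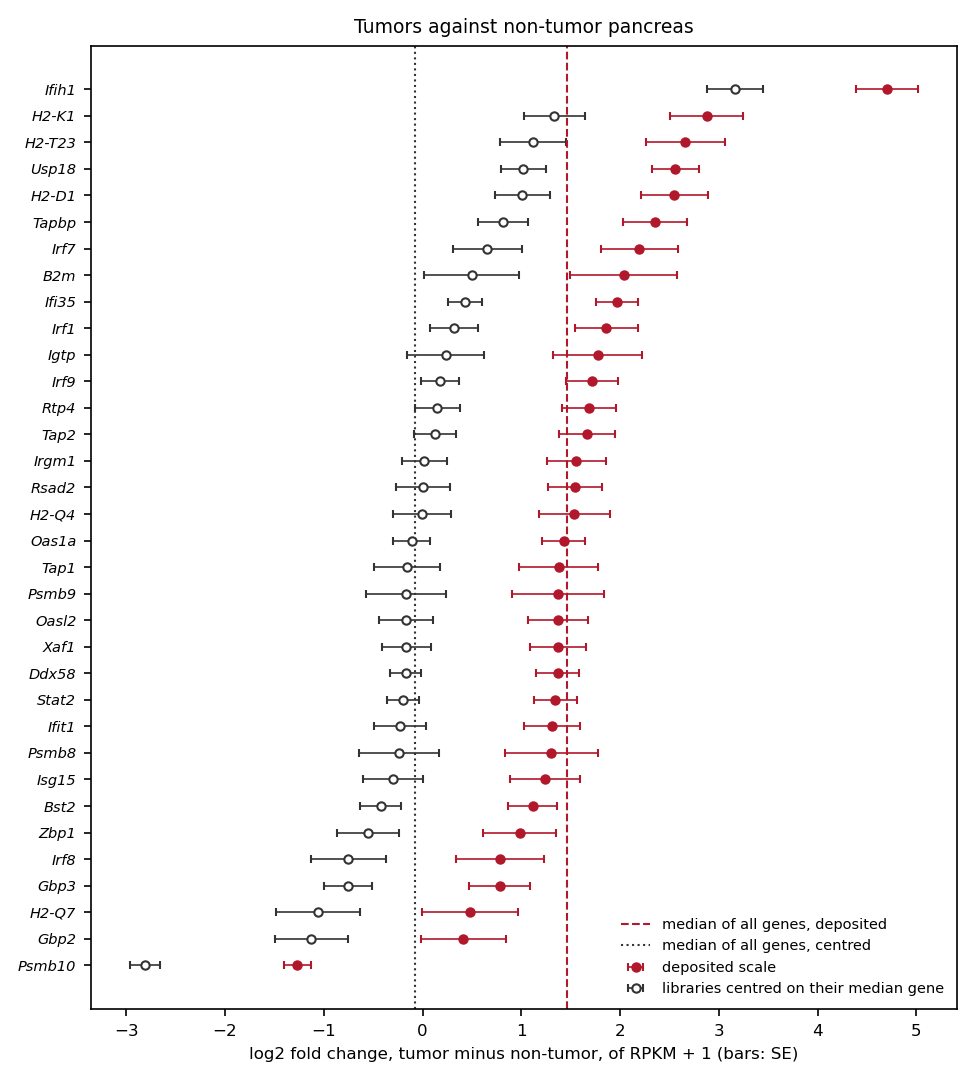
Log2 change from non-tumor pancreas to tumor, of RPKM + 1, for the 34 genes tested, on the deposited scale (red, filled) and with each library centred on its median gene (open), with SE bars; vertical lines mark the median of all genes on each scale. Ifih1 lies far to the right and Psmb10 far to the left of the medians on both scales, and most other genes lie near the medians.

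Ifih1 had the largest change of the module. It was at 0.303 (lowest), 0.782 (median) and 1.19 RPKM (highest) in non-tumor tissue, from 18 to 59 recovered reads per library. In tumors 1 to 7 it was at 24.5, 17.7, 31.5, 47.9, 132.5, 49.7 and 76.9 RPKM, from 1650 to 12751 reads. Every tumor lay far above every non-tumor library. Ifih1 rose by 4.70 on the log2 scale (SE 0.31, limma adjusted p = 9.34e-11) and by 3.16 after centring (adjusted p = 4.61e-08). In the separately normalised table of sorted alpha cells its means were 21.9 RPKM in heterozygous and 42.0 in knockout cells, so of the 4 groups non-tumor tissue, which also had the lowest Gcg, had the lowest Ifih1. The companion sensor Ddx58 averaged 4.19, 2.51, 1.12 and 4.52 RPKM in heterozygous cells, knockout cells, non-tumor tissue and tumors.

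Ifih1 (chr2:62595798-62646255, minus strand, GRCm38) lies in the neighbourhood of the glucagon gene: Gcg (chr2:62474530-62483650) is 112.1 kb away, with the protease gene Fap between them, 21.7 kb from Ifih1, and Gca, encoding the calcium-binding protein grancalcin, 18.0 kb away on the other side. Gca averaged 1.05 RPKM in non-tumor tissue and 14.2 in tumors and rose by 2.82, and by 1.28 after centring (limma adjusted p = 4.34e-06). Fap averaged 0.373 and 0.596 RPKM in tissue, below the level tested, and 8.70 and 11.2 in heterozygous and knockout alpha cells. Gcg rose by 10.18. Dpp4, on the far side of Gcg from Ifih1, averaged 1.14 and 1.32 RPKM in tissue and was not called on the deposited scale (0.02), and after centring it was lower (-1.52, limma adjusted p = 8.82e-06). Of these 4 genes, Gcg and Gca were thus called in the same direction as Ifih1 on both scales and Dpp4 was not, and Fap was near the floor in tumors. Of all genes, 90.7% were higher on the deposited scale and 28.6% after centring. The neighbours were chosen after their values were seen. The part of the neighbourhood or of alpha cells in the Ifih1 difference was not tested.

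**Figure D4:**
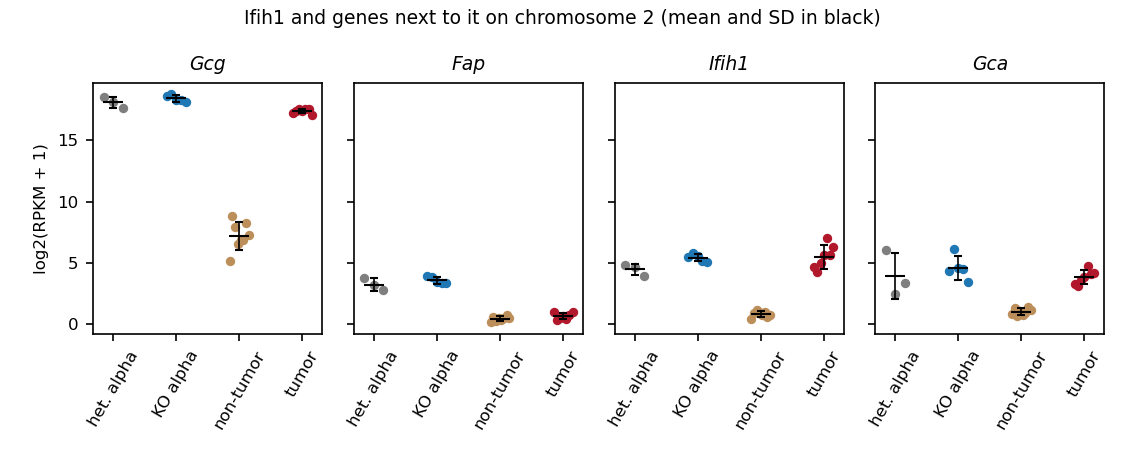
Gcg, Fap, Ifih1 and Gca, in their order on the chromosome, as log2(RPKM + 1) in the 4 groups, with 1 point per library and the mean and SD in black; the alpha cell and tissue tables were normalised separately. Ifih1 and Gca are low in non-tumor tissue and high in the other 3 groups, while Fap is low in tumors as well.

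Non-tumor library 2 decided several of the tissue values. It was the highest non-tumor library for 30 of the 41 genes (73.2%, untested genes included), beside 59.5% of the genes tested. Its summed leukocyte markers were 6665 RPKM, of which the immunoglobulin gene Ighm made 6010. Without Ighm its sum was 652, against 12.0 to 157 in the other non-tumor libraries. Non-tumor library 1 was the lowest for 38 of the 41 (92.7%, untested genes included), beside 38.7% of the genes tested. Its leukocyte sum of 13.1 was the lowest of the tissue libraries. Its sums of endothelial, fibroblast and mural, ductal, alpha, beta, and delta and PP markers were also the lowest of the non-tumor libraries. Summed acinar markers were highest in library 1, at 602000 RPKM, and lowest in library 2, at 463600. Without library 2, 33 genes were tested and 31 were higher (91.8% of all genes) and 1 lower (3.59%), and the groups were apart in 22 genes that were higher (83.0% of all genes). With library 2 they had been apart in 7 (76.9% of all genes): Tapbp, Irf7, Usp18, Ifi35, Ifih1, Oas1a and Rsad2. Irf8 (1.17, limma adjusted p = 0.00103) and H2-Q7 (0.92, adjusted p = 0.00612) were called higher without it on the deposited scale, though their centred changes were -0.44 and -0.69. With centring and without library 2, 8 genes were higher (29.2% of all genes), Irf1 joining the 7 named above, and 4 lower (37.6%). The part of leukocytes or of acinar content in these values was not tested.

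Tumors varied among themselves in the module more widely than in other genes, as a description: the median SD of the 34 genes among the 7 tumors was 0.666 on the log2 scale, beside 0.27 over all 10220 genes. Tumor 5 was highest for 21 of the 41 genes (51.2%, beside 27.8% of the 10220 genes tested) and tumor 4 for 17 (41.5%, beside 21.8%). The 41 include genes too low to be tested, and the shares over all genes do not. Of these low genes, Ifit2, Ifit3, Ifi44, Oas2, Mx1 and Mx2 were highest in tumor 5 and Nlrc5 in tumor 4. The order of the 2 tumors therefore rests on untested genes. The genes highest in tumor 5 were H2-D1, B2m, Stat2, Irf7, Irf9, Isg15, Ifih1 and Ddx58, the 3 OAS genes and all IFIT and other antiviral genes except Ifi35. The genes highest in tumor 4 were the other 4 heavy chains, Tap1, Tap2, Tapbp, Psmb8, Psmb9, Nlrc5, Irf1, Irf8, Zbp1 and all 4 GTPases. Tumor 2 was lowest for 24 genes and tumor 1 for 14.

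By role, tumor 4 lay above the median tumor by a median of 1.71 (log2) in the GTPases and 0.00 in the OAS genes, whereas tumor 5 lay above it by 0.49 in the GTPases and 1.23 in the OAS genes. Gbp2 was at 16.3 RPKM in tumor 4 and at 0.881 to 3.22 in the other 6, and Igtp at 30.7 against 2.42 to 14.0. Oas2 was at 9.66 RPKM in tumor 5, 2.34 in tumor 4 and 0.241 in tumor 2. Isg15 was at 18.4 RPKM in tumor 5 and 12.4 in tumor 3, Irf7 at 42.8 and 23.6, and Usp18 at 14.4 and 19.3. Tumor 3 therefore stood with tumor 5 in the ISG15 pair, at 1.18 and 1.25 above the median tumor, and near the median tumor in the GTPases (-0.01). Among interferon genes, Ifng was at 0.762 RPKM in tumor 4 and at 0 in the other 6 tumors. Ifnb1 was at 0.0583 RPKM in tumor 5 and at 0 in the others. The 14 interferon genes together reached 0.1702 in tumor 5, where Ifna4 and Ifnl2 were also above 0. These interferon values lay near the floor, below the filter of 1 RPKM, and no interferon gene was tested. Summed leukocyte markers were highest in tumor 7, at 739 RPKM, with 689 in tumor 4, 328 in tumor 5 and 152 to 371 in the other 4. Without Ighm, tumor 4 was highest at 672.7 RPKM and tumor 7 stood at 446.1. By the median of 32 markers tumor 4 stood 1.00 above the median tumor and tumor 5 stood 0.06 above it. The class II genes H2-Aa and H2-Ab1 were at 248 and 191 RPKM in tumor 4 and at 9.10 to 75.7 and 6.23 to 62.5 in the others. Their part in the pattern of tumor 4 was not tested.

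**Figure D5:**
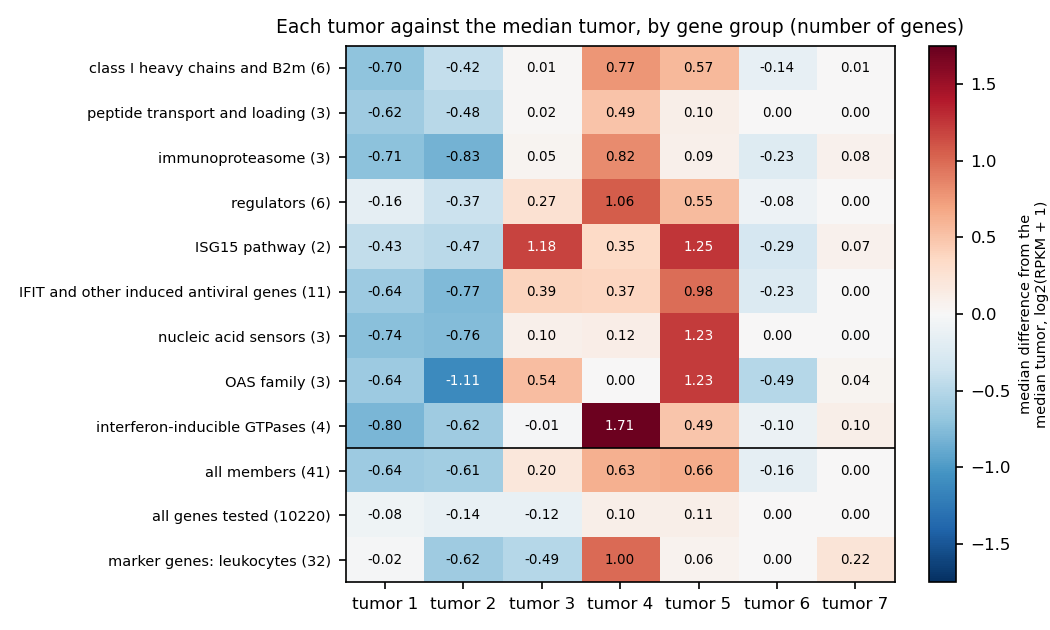
Median log2 difference of each of the 7 tumors from the median tumor, for the genes of each role and, below the line, for all 41 genes, all genes tested and the leukocyte markers (number of genes in brackets; red higher, blue lower). Tumor 4 is highest in the GTPases (1.71) and in the leukocyte markers (1.00), tumor 5 in the OAS genes and sensors (1.23 each), and tumors 1 and 2 are below the median in every role.

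Outside the 41 genes, related lists were read from the same fits. In alpha cells 0 of the tested genes were called in each list: 9 receptors and kinases, 7 other STAT and IRF factors, 10 other sensing genes, 24 other interferon-induced genes, 16 other class I genes and 5 class II genes. The class I gene H2-Q2 was at 0.472, 0.278 and 3.09 RPKM in heterozygous libraries and at 20.4, 11.0, 6.69, 5.16 and 2.76 in knockout libraries (log2 difference 2.12, limma adjusted p = 0.253). Psme3, a proteasome activator subunit, differed by 1.55 (limma adjusted p = 0.376). The RNA editor Adar averaged 1.49 and 7.22 RPKM with groups apart (1.67, limma adjusted p = 0.288), while Ifi27l2a and Trim14 had log2 differences of -2.25 and -1.78 (adjusted p = 0.331 and 0.334). The receptor subunits Ifnar1 and Ifngr2 had log2 differences of 1.14 and 1.54, again without passing. H2-Aa and H2-Ab1 differed by 2.01 and 1.48 (limma adjusted p = 0.538 and 0.563). H2-Aa was at 149.8 RPKM in knockout library 2 and 57.2 in library 5, and at 1.52 to 5.64 in the other knockout libraries. H2-Ab1 was at 37.7 RPKM in library 5 and at 0.032 to 6.10 in the others. Summed leukocyte markers were 174 RPKM in library 5 and 8.52 in library 2, and their part was not tested.

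In tissue, 9 of 9 receptors and kinases, 7 of 8 other STAT and IRF factors, 14 of 16 other sensing genes, 30 of 37 other interferon-induced genes, 15 of 16 other class I genes and 2 of 6 class II genes were higher on the deposited scale (90.7% of all genes) and 0 lower. After centring, where 28.6% of all genes were higher and 36.7% lower, the receptors and kinases had 1 higher and 7 lower and the other STAT and IRF factors 2 and 2. The other sensing genes had 2 higher and 7 lower, the other interferon-induced genes 7 and 12, the other class I genes 7 and 2, and the class II genes 0 and 0. H2-Q2 was at 1.02 to 2.36 RPKM in non-tumor tissue and at 29.1 to 56.0 in tumors; it rose by 4.09 (SE 0.14, limma adjusted p = 5.66e-14) and by 2.55 after centring. Lgals3bp, encoding a secreted galectin-3-binding glycoprotein, was at 4.28 to 27.8 RPKM against 348 to 690 and rose by 5.57 (limma adjusted p = 1.54e-12) and by 4.03 after centring; in sorted alpha cells it already stood at 199 to 412 RPKM. Isg20, an exonuclease gene, rose by 2.74 and by 1.20 after centring, and Adar by 2.14 and 0.60. Ifnar2, a subunit of the type I receptor, rose by 2.16 and by 0.62 after centring, whereas Tyk2, a kinase of the same receptor, rose by 1.31 on the deposited scale and was lower after centring (-0.23, limma adjusted p = 0.0376). Ctss and H2-DMa, of the class II pathway, rose by 2.56 and 1.101 on the deposited scale and did not pass after centring.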

How the data were processed

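RNA from sorted alpha cells, tumors and non-tumor pancreas was sequenced as 23 libraries; per the labels' protocols, RNA came from an RNeasy kit and libraries from a TruSeq RNA kit. GRCm38, GSNAP and CASAVA 1.8 appear in the submitters' processing notes, without roles. The authors deposited RPKM values in 2 tables, alpha cells and tissue; the unit was read from the values. Not given in the sources used here were the counter, annotation, strand setting and totals. Tissue values above 0 were whole multiples of 1 read per gene and library within 0.1 of a read for 100% of 16422 genes with 3 or more such values, which gave the read numbers as lower bounds. Many read numbers were tried per gene, so a gene with few values above 0 could fit by chance. The 100% is therefore no test of the recovery. Library scaling by the authors did not follow the inverse of those reads, so tissue fold changes depend on it.

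Values were tested as log2(RPKM + 1), which understates changes of low genes, with limma 3.58.1 (trend, R 4.3.3), 2-sided, each table by itself without covariates. A gene was tested if at least 3 alpha cell or 7 tissue libraries reached 1 RPKM. The fit was checked on simulated data. Replicate numbers did not pair the libraries: correlations of same-numbered deviations were 0.00127 to 0.0872 in alpha cells and -0.222 to 0.149 in tissue. Positions came from GENCODE on GRCm38 and promoters from RefSeq; Python 3.11.15 did the remaining work. Of the tests planned for counts and for RPKM, only that for RPKM applied.

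Named genes were all 41; values were given for those called in a comparison, otherwise for the 10 of lowest adjusted p, and for the most abundant of each role in tumors, with the 2 genes of lowest adjusted p of each other list. Genes named as neighbours of Ifih1 and Psmb10, Psmb5, Psmb6, Ifng and Ifnb1 were chosen after their values were seen. Some genes that met the rule are given in fewer values or not reported. The members and lists were chosen with earlier results of these data known. Alternatives were median centring, quantile normalization, a pseudocount of 0.1, a filter on a mean of at least 5 RPKM, no filter, array weights, a replicate block, and each library left out. Scaling without acinar genes and sex as a covariate were run in tissue only, and class of library as a covariate in alpha cells only. Scaling to recovered reads, and centring without non-tumor library 2, were chosen after seeing the data.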

Additional observations from a re-analysis of the deposited data

Results flagged for a closer look

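In some groups 1 library lay far from the rest of its group; such a gap arises by chance in about 1 in 20 groups. In knockout alpha cells this was found for 4 of 28 genes: H2-K1 at 129 RPKM in library 1, Ifit1 at 2.17 in library 3, and Oas1a at 1.09 and Gbp2 at 1.67 in library 5. In non-tumor tissue it was found for 11 of 37 genes, each time in library 2. That library was the highest non-tumor library for 59.5% of all genes tested. The share of all genes with such a gap is not reported here for any group, so these counts are not read as particular to the module. The class I pathway genes there were H2-K1 at 206 RPKM, H2-Q7 at 16.3, Tap1 at 16.4, Tap2 at 15.3, Psmb8 at 40.9 and Psmb9 at 20.5. The regulators were Nlrc5 at 2.97 and Irf8 at 12.6, and the remaining genes were Igtp at 11.0, Irgm1 at 8.89 and Zbp1 at 4.45. In tumors it was found for 2 of 41 genes, Irf8 at 9.97 RPKM and Gbp2 at 16.3, both in tumor 4. Summed leukocyte markers were highest of their group in knockout library 5 and non-tumor library 2, and high in tumor 4 (689 RPKM), and their part was not tested. They were 17.1 RPKM in knockout library 1, the median of its group, and 24.9 in knockout library 3.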

How the results depend on the processing

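In alpha cells 0 of the module genes were called under every alternative run, and the 17 higher and 11 lower genes of the whole table became 28 and 18 (46 in all) under quantile normalization, 51 and 39 (90) with array weights, and 0 and 0 with no filter on low values. With a pseudocount of 0.1 RPKM 1 gene was lower and 15 were called in all. The fit with the replicate block called 2 higher and 1 lower (3 in all). Leaving out each library in turn gave 7 to 58 genes called, 7 to 29 higher and 0 to 33 lower; without heterozygous library 2 it was 7 and 0, and without heterozygous library 1 it was 25 and 33. The median change of the module was 0.859 where a mean of at least 5 RPKM was asked, with 6 genes left. Uncalled alpha cell changes that turned sign were Usp18 at 0.00814 after centring and 0.517 with the pseudocount of 0.1 RPKM, Bst2 at -0.0881 under quantile normalization, -0.335 with array weights and -0.241 with class of library as a covariate, and with array weights Psmb8 at 0.165, Irf7 at -0.0156 and Ifi35 at -0.0926. With libraries left out in turn, those that turned sign spanned Bst2 -0.207 to 0.509, Ddx58 -1.08 to 0.345, Igtp -0.0146 to 0.922, Irf7 -0.176 to 0.768, Psmb8 -0.803 to 0.513, Psmb9 -0.528 to 0.899, Tapbp -0.222 to 0.696, Usp18 -0.914 to 0.76. In tissue, centring gave 2927 genes higher and 3746 lower, with 7 and 4 module genes (11 in all) and a module median of -0.0564. Quantile normalization gave 3335 and 3042 (6377 in all), with 6 and 2 (8) and 0.0315. Scaling without acinar genes gave 5072 and 1671, with 10 higher of 11 called and 0.413. A mean of at least 5 RPKM gave 3909 and 178 (4087), with 18 higher of 19 called, and no filter gave 614 lower. Centring without non-tumor library 2 gave 2952 and 3790, with 8 and 4 (12) and 0.134. The replicate block changed no other call: 30 module genes were higher and 1 lower, with a median of 1.45. Scaling to recovered reads gave 32 and 1, with a median of 1.81. Log2 changes that turned sign were, after centring, H2-Q4 -0.00122, H2-Q7 -1.06, Tap1 -0.159, Psmb8 -0.235, Psmb9 -0.166, Stat2 -0.195, Irf8 -0.754, Isg15 -0.3, Ifit1 -0.228, Ddx58 -0.17, Oas1a -0.112, Oasl2 -0.167, Bst2 -0.424, Xaf1 -0.167, Gbp2 -1.13, Gbp3 -0.758, Zbp1 -0.556. Under quantile normalization they were H2-Q4 -0.0771, H2-Q7 -0.688, Tap1 -0.143, Psmb8 -0.302, Psmb9 -0.133, Stat2 -0.0999, Irf8 -0.458, Isg15 -0.293, Ddx58 -0.0374, Oasl2 -0.0838, Bst2 -0.474, Gbp2 -0.904, Gbp3 -0.521, Irgm1 -0.0343, Zbp1 -0.115. Scaled without acinar genes they were H2-Q7 -0.279, Psmb8 -0.00434, Irf8 -0.0647, Bst2 -0.332, Gbp2 -0.531, Gbp3 -0.121. With centring and without non-tumor library 2 they were H2-Q7 -0.693, Stat2 -0.161, Irf8 -0.442, Isg15 -0.188, Ifit1 -0.33, Ddx58 -0.116, Oas1a -0.115, Oasl2 -0.252, Rsad2 -0.119, Bst2 -0.392, Xaf1 -0.191, Gbp2 -0.97, Gbp3 -0.697. These scalings differ from the deposited one by construction, and any other cause was not tested. Without tumor 4, Gbp3 had 0.572 (limma adjusted p = 0.0561). H2-K1, H2-D1, H2-T23, Tapbp, Usp18, Ifih1 and Psmb10 kept their direction and call under all 4 of these scalings. Low genes such as Mx1 and Ifit3 were left untested by the filter of 1 RPKM in 7 tissue libraries.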
